A study of Mus musculus with 4 samples.

Results

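Potassium channel genes and anoctamin genes were followed in the mouse mammary epithelial cell line Comma D beta. Members were chosen by name: every gene whose symbol in the array annotation starts with Kcn, or with Ano followed by a digit. There were 91 such genes among 18194 named genes, each read from the probe set whose mean over the arrays was highest, and 19 of the 91 read above a linear level of 30 (4.91 on the log2 scale) on at least 1 array and are described below. Cells were grown in 2% serum with 5 ug/ml insulin and 10 ng/ml EGF and were left untreated or given doxycycline (dox) at 100 ng/ml for 1 day. They were then sorted by the surface marker Sca1, which gave 4 groups, Sca1+ and Sca1- cells without dox (untreated) and Sca1+ and Sca1- cells with dox, with 200k cells per sorted fraction and 1 expression array per group. The sources used here do not say what dox controls in this line or whether it is 1 clone. The series title names Bcl11b, a zinc-finger transcription factor, and its probe set 1450339_a_at read 6.87 and 6.29 (log2) on the untreated Sca1+ and Sca1- arrays and 12.11 and 11.99 on the dox Sca1+ and Sca1- arrays.

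Potassium channels let potassium leave the cell and so set the membrane voltage. In secretory epithelia such as the mammary gland they hold the cell interior negative, which supplies the driving force for chloride exit. Their pore-forming subunits fall into voltage-gated, calcium-activated, inwardly rectifying and tandem-pore classes, and small auxiliary subunits tune the pores. Anoctamins are membrane proteins of which some, such as Ano1, are calcium-activated chloride channels, while others, such as Ano6, scramble phospholipids.

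All levels below are deposited log2 values from one array per group, so no difference has a replicate check. Deposited levels under 10 had been set to 10 (3.32 on the log2 scale, called the floor), and a difference against a floor value is a lower bound, written "at least". Between 44.8% and 48.0% of probe sets lay at the floor on each array, and the actin control read higher at its 3' than at its 5' end by 0.69 (untreated Sca1+) to 0.91 (dox Sca1-) on the log2 scale. The same difference of the Gapdh control ran from -0.10 (untreated Sca1+) to 0.11 (dox Sca1-). All 7 mammary epithelial markers (Krt8, Krt18, Krt5, Krt14, Epcam, Cdh1, Cldn7) read above 30 on every array, except Cldn7 on dox Sca1+ (4.82). Of 8 fibroblast markers, 3 (Pdgfrb, Col1a1 and Col3a1) were at the floor on all 4 arrays and 2 exceeded 30 on some array, Pdgfra and the proteoglycan gene Dcn. Dcn was at the floor without dox and read 9.41 in dox Sca1+ and 8.42 in dox Sca1- cells, at least 68.0-fold and 34.2-fold above it, and the summed linear level of the fibroblast list was 88.9 and 105 on the untreated Sca1+ and Sca1- arrays and 767 and 434 on the dox ones. Of 8 named leukocyte markers, 5 (Ptprc, Cd3e, Cd3g, Cd79a and Itgam) were at the floor on all 4 arrays and 1 exceeded 30, the macrophage lysosomal gene Cd68, with 3.37 and 3.76 on the untreated and 6.16 on each dox array. The summed leukocyte level was 80.3 and 83.7 without and 145 and 142 with dox, an increase that lay mostly in Cd68. Of 6 endothelial markers 4 were at the floor throughout and 0 exceeded 30, and of 8 muscle markers 5 exceeded 30, with summed levels of 446 and 729 without and 302 and 461 with dox. The part of the fibroblast, leukocyte and muscle markers in the channel values was not tested. Levels in a bulk sample do not tell fewer expressing cells from less RNA per cell.

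Most members gave no signal above the floor. Of the 91 genes, 49 were at the floor on all 4 arrays, against 28.0% of all named genes, and 23 more lay above it on some array without reaching 30. All 9 modifier subunits of the Kcnf, Kcng, Kcns and Kcnv groups stayed undescribed. Above 30 on at least 1 array were 19 of the 91 genes, against 10139 of all 18194 named genes. Among the 19 genes above 30 were 4 of 7 anoctamins, 3 of 12 tandem-pore channels (Kcnk) and 2 of 15 inward rectifiers (Kcnj). They also held 4 of 22 voltage-gated pore genes and 2 of 12 of their auxiliary subunits. Of the Kcnma, Kcnn, Kcnt and Kcnu pore genes, grouped by name as calcium- or sodium-activated, 2 of 8 were above 30. So were 1 of 3 auxiliary subunits of the large-conductance calcium-activated channel and 1 of 3 non-coding RNAs. The genes just inside the threshold were Kcnq5 and Kcnq1ot1, whose highest arrays read 4.99 and 4.98, and those just outside were Kcnh3 and Kcnmb4os2, with 4.78 and 4.53. A dimmer Kcnh3 probe set, 1421619_at, reached 5.17 on the dox Sca1+ array and 4.32 or less on the others.

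**Figure D1:**
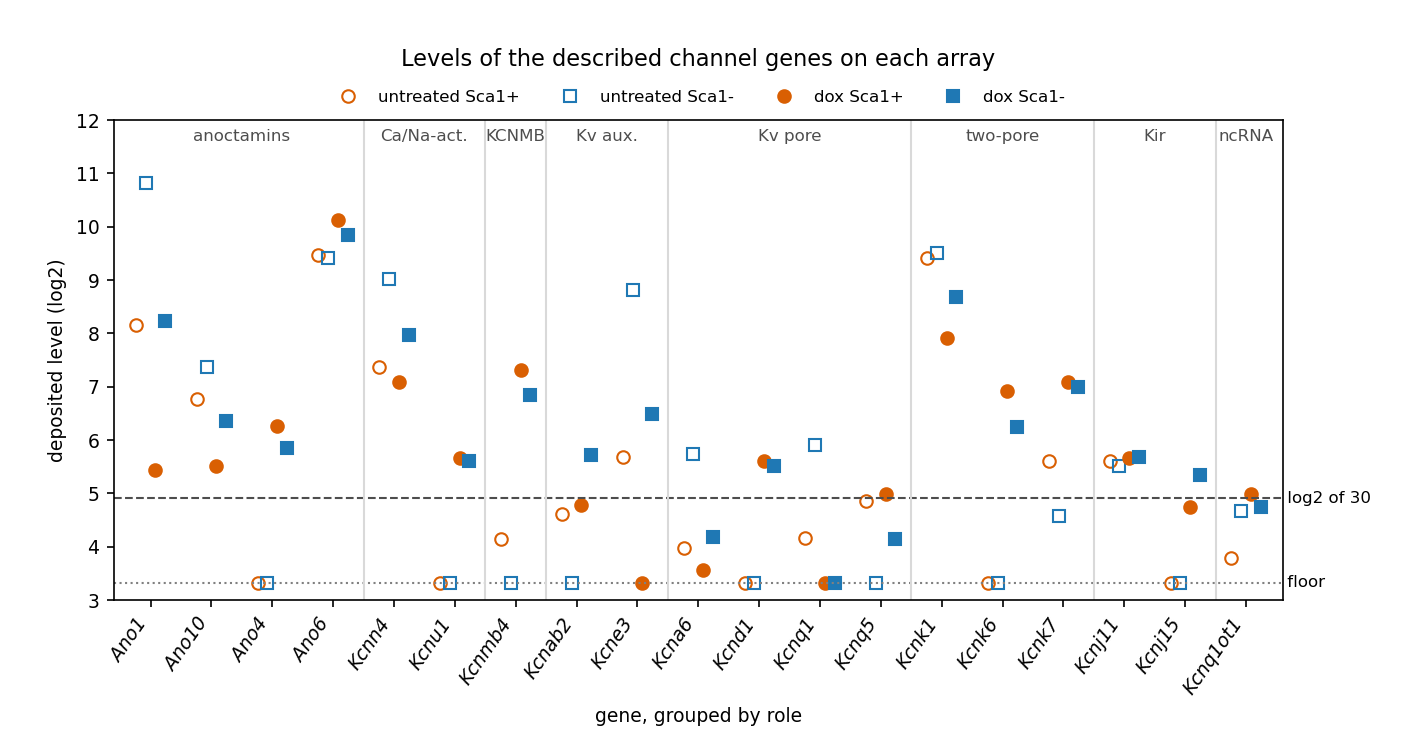
Deposited log2 level (vertical axis) of each of the 19 described genes (horizontal axis), grouped by role. Ca/Na-act. holds the Kcnma, Kcnn, Kcnt and Kcnu pore genes, grouped by name, and KCNMB the auxiliary subunit of the large-conductance calcium-activated channel. Kv aux. and Kv pore are voltage-gated auxiliary and pore subunits, and "two-pore" marks tandem-pore channels. Kir marks inward rectifiers and ncRNA the non-coding RNA. Each symbol is 1 array, open for untreated and filled for dox; Ano1 and Kcne3 spread from 10.82 to 5.44 and from 8.81 to the floor, while Kcnj11 stays between 5.50 and 5.69.

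The 2-fold size rule (an absolute log2 difference of 1 or more) divided the 19 genes by treatment and by fraction. With dox, 7 were higher in both fractions by this rule (Kcnmb4, Kcnk6, Kcnk7, Ano4, Kcnu1, Kcnd1 and Kcnj15), against a background of 6.16% of the 10139 genes that passed the same level filter, and 3 were lower in both (Ano1, Kcne3 and Ano10), against 10.2%. In Sca1+ relative to Sca1- cells, 2 were at least 2-fold lower both without and with dox (Ano1 and Kcne3), against 1.05%, and 0 were higher both times, against 1.3%. Because a gene can pass the filter through the dox arrays alone, the counts were also taken over all 91 members without a filter, which gave 8 higher with dox in both fractions against 3.57% of 18194 genes, the added gene being Kcnq3 (at the floor untreated, 4.46 and 4.45 with dox), and 3 lower against 5.77%. Of the 91 without a filter, 2 were lower in Sca1+ cells under both treatments, against 0.594%, and 0 higher, against 0.726%. With levels under 30 set to 30, the 7 higher genes were reduced to 3 of the 19 (Kcnmb4, Kcnk6 and Kcnk7), against 4.57% of 10139 genes. A required mean level above 30 left 10 members, of which the same 3 were higher, against 5.13% of 9263 genes. With probe sets averaged, 5 of 12 members were higher, against 4.91% of 9110 genes. The 5 (Kcnmb4, Kcnk6, Kcnk7, Ano4 and Kcnu1) have 1 named probe set each, so no second probe set checks them. Taken 1 contrast at a time, dox cells had 8 genes past 2-fold higher in the Sca1+ fraction (background 8.97%) and 8 in the Sca1- fraction (8.06%), and 4 (14.8%) and 6 (12.7%) past 2-fold lower. Sca1+ cells had 3 higher (3.24%) and 5 lower (3.33%) than Sca1- cells without dox, and 0 higher (2.63%) and 2 lower (3.3%) with dox. The median dox difference of the 19 genes was 0.16 in Sca1+ and 0.44 in Sca1- cells, beside 0.02 and 0.04 over the 10139 genes, and the median Sca1 difference was 0 without and with dox, beside -0.02 and -0.06. These medians depend on the filter. Genes such as Kcnk6 and Ano4 passed it only through dox arrays, and Kcnq1 and Kcna6 only through an untreated array. Of the 91 members, 49 were at the floor on all arrays and so had differences of 0.

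Promoter sequences of genes in these groups are shown first, so that the higher and lower genes can be set side by side. RefSeq promoter windows (assembly GRCm38.p6) were matched by symbol for 14 of the 19 genes, 18 windows in all. Those of Ano1 and Kcne3, lower with dox and lower in Sca1+ cells, and of Kcnmb4 and Ano4, higher with dox, are given as the 250 bases before the annotated start, 5′ to 3′ on the gene's strand. They lie at chr7:144738574-144738823 (minus strand, Ano1), chr7:100176420-100176669 and chr7:100178433-100178682 (plus strand, the first and second Kcne3 starts), chr10:116473524-116473773 (minus strand, Kcnmb4) and chr10:89257791-89258040 (minus strand, Ano4). Capitals mark matches on either strand. The motifs searched were TGACCA, the letters that the Bcl11b paralogue BCL11A is known to bind, the AP-1 site TGANTCA, the E-box CACCTG, the Sp1-type box GGGCGG, the box CCAAT known from many promoters, and the box TATAAA near which transcription can start.
Ano1: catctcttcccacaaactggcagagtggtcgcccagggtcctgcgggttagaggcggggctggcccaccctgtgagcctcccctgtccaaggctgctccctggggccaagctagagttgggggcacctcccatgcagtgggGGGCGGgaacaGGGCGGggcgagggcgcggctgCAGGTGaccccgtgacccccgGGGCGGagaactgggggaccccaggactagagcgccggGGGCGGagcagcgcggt
Kcne3, first start: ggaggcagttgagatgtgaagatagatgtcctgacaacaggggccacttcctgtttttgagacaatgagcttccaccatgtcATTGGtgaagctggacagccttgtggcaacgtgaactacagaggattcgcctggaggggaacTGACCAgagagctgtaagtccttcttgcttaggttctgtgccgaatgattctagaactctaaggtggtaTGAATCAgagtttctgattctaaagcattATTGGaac
Kcne3, second start: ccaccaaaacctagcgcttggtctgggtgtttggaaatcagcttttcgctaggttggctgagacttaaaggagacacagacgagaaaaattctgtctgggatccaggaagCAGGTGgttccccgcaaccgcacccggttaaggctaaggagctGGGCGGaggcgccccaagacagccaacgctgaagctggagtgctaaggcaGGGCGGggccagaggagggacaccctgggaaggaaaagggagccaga
Kcnmb4: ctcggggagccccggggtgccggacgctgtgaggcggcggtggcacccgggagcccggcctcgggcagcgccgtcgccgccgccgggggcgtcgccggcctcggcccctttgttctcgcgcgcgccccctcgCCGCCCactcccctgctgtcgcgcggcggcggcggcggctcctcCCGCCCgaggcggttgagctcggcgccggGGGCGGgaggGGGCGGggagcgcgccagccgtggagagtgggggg
Ano4: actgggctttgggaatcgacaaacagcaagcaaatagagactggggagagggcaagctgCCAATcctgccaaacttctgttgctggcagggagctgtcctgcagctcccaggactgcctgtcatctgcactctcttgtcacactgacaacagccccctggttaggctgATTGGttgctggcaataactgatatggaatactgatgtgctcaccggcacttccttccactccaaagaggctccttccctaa
No matches overlapped in these windows, and a match describes letters only, not binding.

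The Ano1 window held 4 Sp1-type boxes and 1 E-box, and the Kcnmb4 window 4 Sp1-type boxes. Kcnmb4 had the more CpG-rich window of the pair, with 43 CpG pairs and 83.6% G or C, against 16 and 72.0% in the Ano1 window and a median of 6 and 52.4% over 32851 windows of the same length. The Ano4 window had 2 CpG pairs and 2 CCAAT matches, and the first Kcne3 window 3 CpG pairs. TGACCA was found in 1 of the 18 windows of described genes, 106 bases before the first Kcne3 start, and in 11.4% of all windows. The same Kcne3 window held the 1 AP-1 match among the 18, beside 6.75% of all windows. The Sp1-type box was in 8 of the 18 windows (32.7% of all windows), CCAAT in 5 (33.8%), the E-box in 4 (17.2%) and TATAAA in 0 (12.4%).

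Among the anoctamins, Ano1 was lower with dox in both fractions and lower in Sca1+ than in Sca1- cells under both treatments. Its probe set 1459713_s_at read 8.15 in untreated Sca1+, 10.82 in untreated Sca1-, 5.44 in dox Sca1+ and 8.22 in dox Sca1- cells. The untreated Sca1- array was the high one and the dox Sca1+ array the low one, and the other two lay close together. With dox the level was lower by 6.55-fold in the Sca1+ and 6.07-fold in the Sca1- fraction, and in Sca1+ relative to Sca1- cells it was 6.37-fold lower without and 6.88-fold lower with dox. The difference between the dox effects of the fractions was -0.11 on the log2 scale. Ano1 is the calcium-activated chloride channel of many secretory epithelia. The suffix _s_at marks probe sets that can match more than one transcript, and the second, dimmer Ano1 probe set, 1426571_at, also had its highest level on untreated Sca1- and its lowest on dox Sca1+, with 6.38, 8.68, 3.35 and 5.91 on the arrays in the order above; its middle arrays, untreated Sca1+ and dox Sca1-, stood in the reverse order.

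Ano10 differed from Ano1 in size. It read 6.78 in untreated Sca1+, 7.37 in untreated Sca1-, 5.51 in dox Sca1+ and 6.36 in dox Sca1- cells. Both dox arrays lay below both untreated arrays, with Sca1+ the lower of each pair. The dox level was lower by 2.40-fold in the Sca1+ and 2.01-fold in the Sca1- fraction, just past the size rule, and the Sca1 difference was below 2-fold both times (1.51-fold and 1.81-fold lower in Sca1+). Ano10 has 1 named probe set.

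Ano4 showed the opposite dox direction. It was at the floor on both untreated arrays and read 6.26 in dox Sca1+ and 5.85 in dox Sca1- cells. The dox increase was thus at least 7.68-fold in the Sca1+ and at least 5.78-fold in the Sca1- fraction, and the dox fractions differed by 0.41 on the log2 scale. With levels under 30 set to 30, the Sca1- difference was 0.95, under the size rule.

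Ano6, the calcium-activated phospholipid scramblase of platelets, was within 2-fold in all 4 comparisons. It read 9.46 in untreated Sca1+, 9.41 in untreated Sca1-, 10.12 in dox Sca1+ and 9.85 in dox Sca1- cells. Its dox arrays lay above its untreated arrays, by 1.58-fold in the Sca1+ and 1.36-fold in the Sca1- fraction, and a second probe set gave 0.47 and 0.60 on the log2 scale. The other 3 named anoctamins, Ano3, Ano8 and Ano9, were at the floor on all arrays.

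The auxiliary subunit gene Kcne3 had the same order of arrays as Ano1. KCNE3 is a single-pass protein that joins the KCNQ1 pore and keeps it open, which forms a basolateral potassium channel of chloride-secreting epithelia. Kcne3 read 5.68 in untreated Sca1+ and 8.81 in untreated Sca1- cells, was at the floor in dox Sca1+ cells and read 6.48 in dox Sca1- cells. The dox decrease was at least 5.13-fold in the Sca1+ and 5.01-fold in the Sca1- fraction, and in Sca1+ relative to Sca1- cells it was 8.74-fold lower without and at least 8.95-fold lower with dox. With levels under 30 set to 30, the dox difference in Sca1+ cells was -0.77, under the size rule. The other Kcne genes (Kcne1, Kcne1l, Kcne2 and Kcne4) read 3.34 or less on every array.

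Kcnq1, the voltage-gated pore gene that pairs with KCNE subunits, read above the floor only without dox. It read 4.16 in untreated Sca1+ and 5.91 in untreated Sca1- cells and was at the floor on both dox arrays. Only the untreated Sca1- array exceeded 30. The dox decrease was at least 6.03-fold in the Sca1- fraction and at least 1.79-fold in the Sca1+ fraction, where the untreated level left room for no larger bound, and without dox the Sca1+ level lay 3.38-fold below the Sca1- level. No Sca1 difference can be given with dox.

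Kcnn4, the intermediate-conductance calcium-activated channel, also read higher in Sca1- cells. Its levels were 7.37 in untreated Sca1+, 9.01 in untreated Sca1-, 7.09 in dox Sca1+ and 7.97 in dox Sca1- cells. Both Sca1- arrays lay above both Sca1+ arrays, by 3.11-fold without and 1.84-fold with dox. The dox difference was past 2-fold in Sca1- cells (2.06-fold lower) and was 1.21-fold lower in Sca1+ cells. The dimmer probe set 1421038_a_at gave Sca1 differences of -1.64 and -0.90 and dox differences of -0.50 and -1.23 (log2), in the directions of the brighter one.

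Ano1 and Kcne3 were 2 of the 60 genes, 0.592% of 10139, that were at least 2-fold lower with dox in both fractions and at least 2-fold lower in Sca1+ cells under both treatments. Of the 7 epithelial markers, the luminal genes Krt8 and Cldn7 were also among these 60 and the other 5 were not. Krt8 read 7.67, 9.36, 5.94 and 7.40 on the arrays in the order untreated Sca1+, untreated Sca1-, dox Sca1+, dox Sca1-, and Cldn7, a tight-junction protein, read 7.62, 9.52, 4.82 and 7.22. Krt18, the luminal keratin that pairs with Krt8, had dox differences of 0.07 in Sca1+ and -0.79 in Sca1- cells (log2) and Sca1 differences of -1.60 without and -0.74 with dox. The dox differences of Cdh1, the epithelial cadherin, were 0.34 and 0.15, and those of Epcam were -1.04 and -0.76. Of the basal keratins, Krt5 was lower with dox (-4.00 and -3.13), with Sca1 differences of 0.70 and -0.17, and Krt14 had dox differences of 0.10 and 0.38. The summed linear level of the 7 epithelial markers ran from 8613 on dox Sca1+ to 14601 on untreated Sca1-. The part of luminal cell share in the Ano1 and Kcne3 values was not tested.

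**Figure D2:**
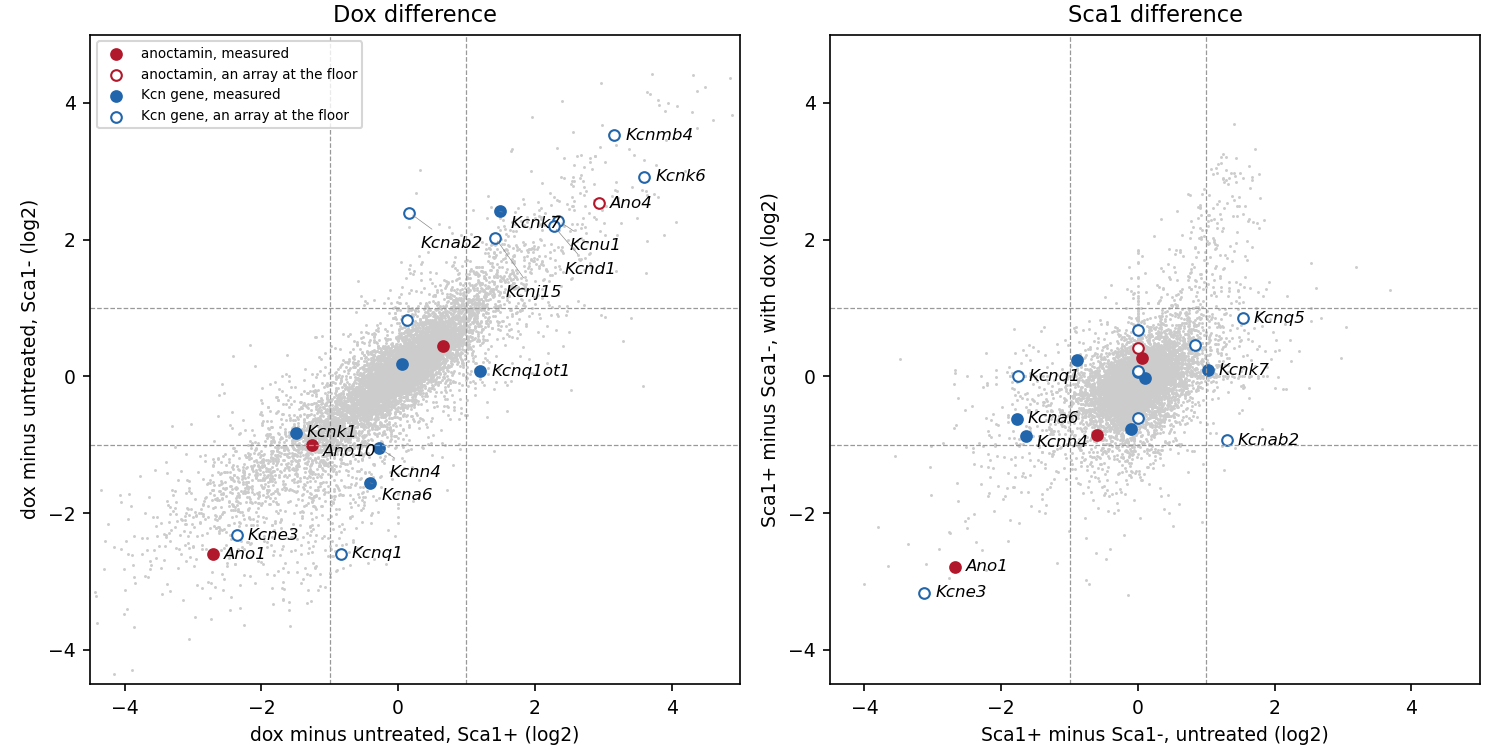
Log2 differences of the 19 described genes (red, anoctamins; blue, Kcn genes; open, at least 1 of the arrays at the floor) over all 10139 genes that passed the level filter (grey). Left, dox minus untreated in Sca1+ (horizontal) against Sca1- cells (vertical); right, Sca1+ minus Sca1- without (horizontal) against with dox (vertical); dashed lines mark 2-fold, and 33 genes on the left and 2 on the right, none of them described here, lie outside the axes. Ano1 and Kcne3 sit below -2 on all 4 scales, and Kcnab2 lies at 1.30 and -0.93 on the right.

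The auxiliary subunit Kcnmb4 was higher with dox while its pore partner gave no signal. KCNMB4 is a beta subunit of the large-conductance calcium-activated BK channel, known mainly from neurons. It read 4.15 in untreated Sca1+ cells, was at the floor in untreated Sca1- cells, and read 7.31 in dox Sca1+ and 6.85 in dox Sca1- cells. Both dox arrays lay above both untreated arrays, by 8.95-fold in the Sca1+ and at least 11.5-fold in the Sca1- fraction. Kcnma1, the gene of the BK pore, was at the floor on all 4 arrays by every named probe set. Kcnmb4os2, a non-coding RNA named for its place opposite Kcnmb4, stayed below the description threshold with 4.53 in dox Sca1+ and 3.67 in dox Sca1- cells and was at the floor without dox. Kcnu1, a pore gene of the same family known from sperm, was at the floor without dox and read 5.66 and 5.60 in dox Sca1+ and Sca1- cells, a dox increase of at least 5.07-fold and 4.85-fold.

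Of the tandem-pore channels, which carry the background potassium leak, Kcnk1 was lower with dox and Kcnk6 and Kcnk7, which belong to the same TWIK subfamily, were higher. Kcnk1 read 9.41 in untreated Sca1+, 9.51 in untreated Sca1-, 7.92 in dox Sca1+ and 8.68 in dox Sca1- cells. Its dox arrays were the low ones, by 2.82-fold in the Sca1+ and 1.77-fold in the Sca1- fraction. With the mean of its probe sets the Sca1- difference was -1.02, past the size rule, since the dimmer 1455896_a_at gave -1.21 there.

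Kcnk6 was at the floor on both untreated arrays and read 6.92 in dox Sca1+ and 6.24 in dox Sca1- cells. The dox increase was at least 12.1-fold in the Sca1+ and at least 7.55-fold in the Sca1- fraction. Kcnk7, whose product is not known to carry current by itself, read 5.60 in untreated Sca1+, 4.58 in untreated Sca1-, 7.09 in dox Sca1+ and 7.00 in dox Sca1- cells. Its dox arrays nearly coincided and exceeded the untreated ones, by 2.80-fold in the Sca1+ and 5.34-fold in the Sca1- fraction. Without dox the Sca1+ level was 2.03 times the Sca1- level, a value that was 0.99 on the log2 scale when arrays were centred on bright probe sets. The 9 other named Kcnk genes read 4.40 or less on every array.

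**Figure D3:**
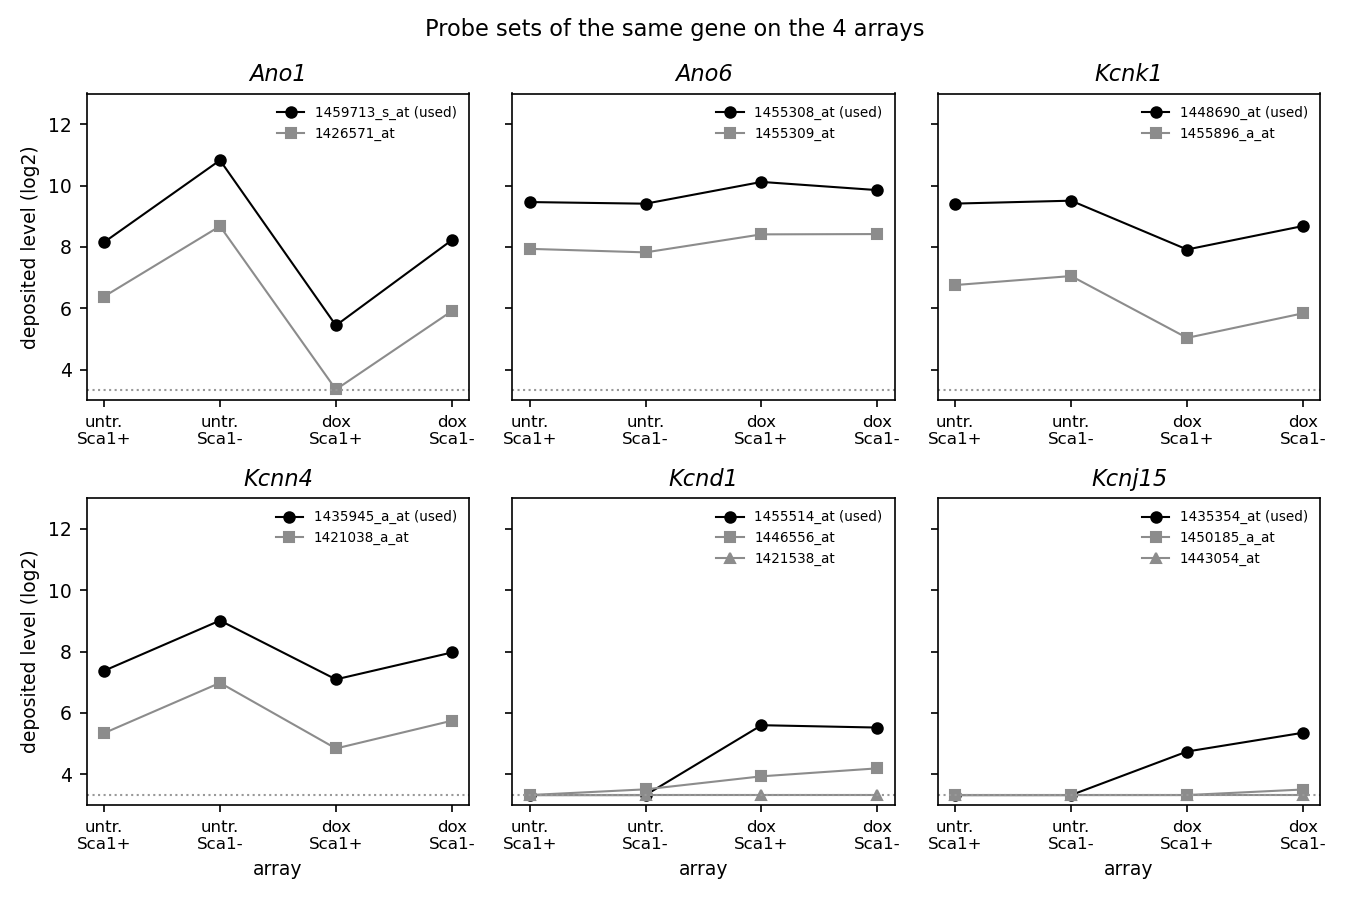
Deposited log2 level (vertical axis) on the 4 arrays (horizontal axis) for every named probe set of 6 genes, with the probe set used in black, the others in grey and the floor dotted; lines join the arrays for reading only. The probe sets of Ano1, Ano6, Kcnk1 and Kcnn4 keep nearly parallel courses, while in Kcnd1 and Kcnj15 the dox increase is large only in the brightest one.

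The values of Kcnd1, Kcna6 and Kcnq5, voltage-gated pore genes, each rest on 1 probe set of several. Kcnd1, which makes a rapidly inactivating A-type current, was at the floor without dox and read 5.60 in dox Sca1+ and 5.52 in dox Sca1- cells, a dox increase of at least 4.84-fold and 4.59-fold. Its second probe set, 1446556_at, read 3.93 and 4.19 with dox, and the remaining one was at the floor on all arrays, so that the mean over the 3 gave differences of 0.96 in each fraction, under the size rule. Its known partners Kcnip1 to Kcnip4 read 3.53 or less.

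Kcna6, a pore of the Shaker group, read 3.97 in untreated Sca1+, 5.74 in untreated Sca1-, 3.56 in dox Sca1+ and 4.18 in dox Sca1- cells. The untreated Sca1- array stood above the other 3, with a level 3.41-fold that of untreated Sca1+ and 2.94-fold that of dox Sca1- cells. The other Kcna6 probe sets read 3.56 or less. Kcnq5, a relative of Kcnq1, read 4.86 in untreated Sca1+, was at the floor in untreated Sca1- cells and read 4.99 and 4.14 in dox Sca1+ and Sca1- cells, so that both Sca1+ arrays lay above both Sca1- arrays. Its Sca1 difference was at least 2.90-fold without and 1.80-fold with dox, and its other probe sets were at the floor.

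Kcnab2, a cytoplasmic beta subunit of Shaker-type channels, had unlike dox differences in the fractions. It read 4.62 in untreated Sca1+ cells, was at the floor in untreated Sca1- cells, and read 4.78 in dox Sca1+ and 5.72 in dox Sca1- cells. The untreated Sca1- array was the low one and the dox Sca1- array the high one. The dox increase was at least 5.26-fold in the Sca1- and 1.12-fold in the Sca1+ fraction. Without dox the Sca1+ level lay at least 2.46-fold above the Sca1- level, and with dox 1.91-fold below it. The difference between the fractions' dox effects (-2.23, log2, Sca1+ minus Sca1-) has no test, since 1 array per group leaves no spread for it, and a second probe set was at the floor.

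Inward rectifiers pass potassium more readily into than out of the cell. Kcnj11, the pore of the ATP-sensitive channel that couples metabolism to membrane voltage, read 5.61, 5.50, 5.66 and 5.69 on the arrays in the order untreated Sca1+, untreated Sca1-, dox Sca1+, dox Sca1-, within 1.14-fold in every comparison, while its second probe set was at the floor. Kcnj15 was at the floor without dox and read 4.74 in dox Sca1+ and 5.35 in dox Sca1- cells, a dox increase of at least 2.67-fold and 4.09-fold. Its other probe sets read 3.50 or less, and with probe sets averaged its dox differences were 0.47 and 0.74. The non-coding RNA Kcnq1ot1, the imprinted transcript of the Kcnq1 locus, read 3.78 in untreated Sca1+ and between 4.67 and 4.98 on the other arrays, and its 5 other probe sets read 4.41 or less.

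Kcnk6, Ano4, Kcnu1 and Kcnd1 shared one course, at the floor on both untreated arrays and above 30 on both dox arrays, as did 61 genes in all (0.602% of 10139). Such genes pass the level filter through their dox arrays alone. Without the filter the counts are 4 of the 91 members and 61 of 18194 genes. A list of 8 neuronal markers, of which 3 exceeded 30, was read beside them. Tubb3, a neuronal tubulin, read 5.76, 3.76, 8.16 and 7.78 on the arrays in the order untreated Sca1+, untreated Sca1-, dox Sca1+, dox Sca1-, and Syp, a synaptic vesicle protein, was at the floor without dox and read 5.26 and 5.04 with it. Map2, a microtubule protein and the third above 30, read 7.13, 8.15, 8.13 and 8.13 in the same order, with dox differences of 1.00 in Sca1+ and -0.03 in Sca1- cells. Below 30, Syt1 was at the floor without dox and read 4.87 and 4.72 with it, Snap25 and Nefl were at the floor on all 4 arrays, and Stmn2 and Rbfox3 read 3.65 or less. The summed linear level of the list was 257 and 359 on the untreated Sca1+ and Sca1- arrays and 676 and 599 on the dox ones, and its part in the channel values was not tested.

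An additive limma fit over the 10139 genes (dox and Sca1 as terms, 1 residual degree of freedom) gave a second reading. It counts fractions that may share a culture as independent, and genes at the floor have too small a spread in it. The residual is the difference between the dox effects of the fractions, moderated over all genes. The SE and p therefore measure departure from additivity, not replicate spread. Unlike dox differences in the fractions, as in Kcnq1, Kcna6 and Kcnn4, raise the SE. At a Benjamini-Hochberg adjusted p under 0.05, 7 members were higher with dox (16.4% of all genes) and 4 lower (19.1%), the 4 being Ano1, Kcne3, Ano10 and Kcnk1. The limma dox difference of Ano1 was -2.66 ± 0.14 (SE, adjusted p = 0.0066), that of Kcnk1 -1.16 ± 0.22 (adjusted p = 0.025) and that of Kcnk7 1.95 ± 0.27 (adjusted p = 0.014). Kcnn4 (-0.66 ± 0.23, adjusted p = 0.099), Kcna6 (-0.98 ± 0.32, adjusted p = 0.082) and Kcnq1 (-1.71 ± 0.46, adjusted p = 0.054) did not pass. For the Sca1 term 0 of 10139 genes passed in limma, where an unadjusted p under 0.05 was reached by 732 genes higher in Sca1+ cells (7.22%), 2 of them members, and by 930 lower (9.17%), 5 of them members. The limma Sca1 difference was -2.73 ± 0.14 for Ano1 and -3.14 ± 0.14 for Kcne3, each with an adjusted p = 0.10.

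Other genes of ion transport were read from lists, beside backgrounds of 6.16% higher and 10.2% lower with dox in both fractions. Of 37 chloride channel and cotransporter genes, 31 were named and 19 exceeded 30; 2 of the 19 were higher with dox in both fractions and 0 lower. The 2 were the potassium-chloride cotransporter Slc12a4 (1.20 in Sca1+ and 2.03 in Sca1- cells, log2) and the endosomal exchanger Clcn5 (1.17 and 1.42). Cftr, the cAMP-gated chloride channel, read 4.10, 4.30, 5.33 and 4.80, and Slc12a2, the cotransporter that loads secretory cells with chloride, read 9.05, 9.36, 9.64 and 9.42 on the arrays in the order untreated Sca1+, untreated Sca1-, dox Sca1+, dox Sca1-, neither 2-fold different in both fractions.

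Of 21 sodium channel, pump and regulator genes, 10 of 17 named exceeded 30, with 1 higher and 5 lower with dox in both fractions. The sodium pump beta subunit Atp1b1 had a dox increase of 12.4-fold in the Sca1+ and 2.86-fold in the Sca1- fraction. The pump-modulating FXYD genes Fxyd2 (-3.25 in Sca1+ and at least 4.04-fold lower in Sca1- cells), Fxyd6 (-2.42, and at least 2.06-fold lower) and Fxyd3 (-1.90 and -1.38, log2) were lower, as was the scaffold gene Slc9a3r1 (-1.71 and -1.41). The median over the 10 genes was -1.02 in Sca1+ and -0.83 in Sca1- cells, beside 0.02 and 0.04 over all genes.

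Of 28 calcium entry and signalling genes, 18 of 24 named exceeded 30, with 2 higher and 4 lower with dox in both fractions. Orai1, the pore of store-operated calcium entry, had dox differences of 2.10 in the Sca1+ and 1.68 in the Sca1- fraction, and Trpc1 of 1.12 and 1.09 (log2). The osmotically activated channel Trpv4 had a dox decrease of at least 13.4-fold in the Sca1+ and 6.03-fold in the Sca1- fraction, and Itpr2, a calcium release channel of the endoplasmic reticulum, was at -1.60 and -1.45. The phospholipase gene Plcb4 (-1.67 and -1.14) and the calcium channel Trpv6 (-1.53 and -1.16) completed the lower ones. None of the genes above 30 on these 3 lists was 2-fold different in the same direction between Sca1 fractions under both treatments. Over the 10139 genes, 1.3% were higher and 1.05% lower in Sca1+ cells both times.

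**Figure D4:**
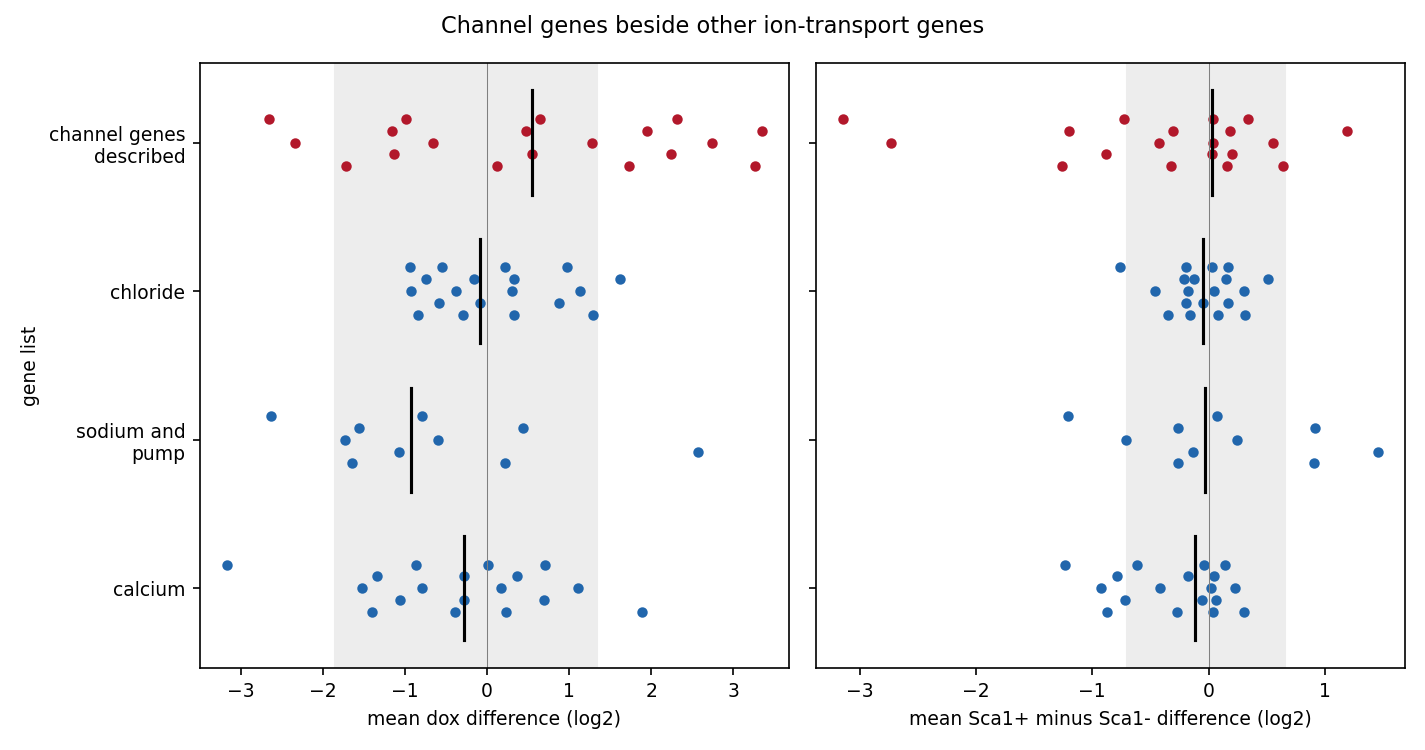
Mean of the 2 dox differences (left) and of the 2 Sca1 differences (right), log2, for each gene above 30 in the 19 channel genes (red) and the chloride, sodium and pump, and calcium lists (blue); black bars are list medians, grey bands span the 5th to 95th percentile of all 10139 genes and vertical scatter has no meaning. The dox medians are 0.55 for the channel genes and -0.08, -0.93 and -0.28 for the lists in that order, with the band from -1.85 to 1.33. A gene could pass the level filter through its dox arrays alone, so these medians depend on the filter.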

How the data were processed

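The authors deposited log2 levels of 45101 probe sets on 4 Affymetrix arrays; biotin-labelled RNA was made from 50 to 500 ng of total RNA by a 3' IVT protocol, per the labels. How the values were summarized and scaled, the software and a genome build were not given in the sources used here. All deposited arrays share an exact minimum, the log2 of 10. Genes were named from a platform annotation with 34958 probe sets of 1 symbol, 932 of several (not used) and 9211 without one. A gene took its probe set with the highest mean, and all genes with at least 1 array above 30 were the background. Differences are plain subtractions of log2 levels, judged by a 2-fold rule. The additive fit used limma 3.58.1 in R 4.3.3. Both rules were also run on simulated levels with independent noise and no floor. That run does not cover floor values or fractions that share a culture. Every described member was named; list genes were named where 2-fold in both differences of a pair, up to 4 per list and direction, and Cftr and Slc12a2 were added after their values were seen. Members, lists and rules were chosen with earlier results of these data known. The gene of Sca1 had no named probe set here. Alternatives covered scaling, probe sets, level filters, the floor and the fold rule.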

Additional observations from a re-analysis of the deposited data

How the results depend on the processing

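Under centring on bright probe sets and under quantile normalization, each of the 12 counts of members past 2-fold stayed within 1.5 times its value. Over the 4 alternatives in scaling, probe set and floor, 119 of 144 member differences of 2-fold or more stayed past 2-fold in their direction, 25 dropped below it and 0 reversed; 15 of the 25 came from setting levels under 30 to 30 and 9 from averaging probe sets. The 7 of 19 genes higher with dox in both fractions numbered 3 of 19 with levels under 30 set to 30, beside 4.57% of 10139 genes. The stricter filters left fewer members. With a mean level above 30 there were 3 of 10, beside 5.13% of 9263 genes. With a highest array of at least 100 there were 3 of 9, beside 5.55% of 7514 genes. In Sca1+ cells alone, 8 of 19 genes were higher with dox. Other settings gave 5 of 12 with probe sets averaged (7.08% of all genes) and 4 of 19 with levels under 30 set to 30 (6.77%). The stricter filters gave 3 of 10 (7.57%) and 3 of 9 (7.71%), and a 3-fold rule 5 of 19 (4.03%). In Sca1- cells alone 8 of 19 were higher. There were 5 of 12 with probe sets averaged (6.44%) and 3 of 19 with levels under 30 set to 30 (6.1%). The stricter filters gave 3 of 10 (6.83%) and 3 of 9 (7.05%). The 3-fold rule left 2 of 4 genes lower with dox in Sca1+ (7.91% of all genes) and 3 of 6 in Sca1- cells (6.45%). Without dox, 3 of 19 genes were higher in Sca1+ than in Sca1- cells. There was 1 of 12 with probe sets averaged (2.50% of all genes), and the stricter filters gave 1 of 10 (2.74%) and 1 of 9 (2.97%). There were 0 with levels under 30 set to 30 (2.53%) or a 3-fold rule (0.70%). Lower without dox were 5 of 19, and 3 of 10 (2.32%) and 3 of 9 (2.36%) under the stricter filters. The 2 genes lower in Sca1+ cells under both treatments numbered 0 at an adjusted p under 0.05 in the additive limma fit, where the smallest adjusted p over all genes for Sca1 was 0.10. That fit takes each factor with the other as a block; with 1 array per group there was no replicate number to block on and no replicate to leave out. The floor limits low genes: 5 of the 19 were at it on both untreated arrays, beside 0.967% of the 10139 genes, so the dox differences of the 5 are bounds.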
